A study of Mus musculus with 4 samples.

Results

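The Slc25 family of mitochondrial carriers was described in single nuclei of mouse liver, across cell types and between WT mice and mice with a hepatocyte-specific Nampt knockout (HNKO). Members were all gene rows whose symbol begins with Slc25a and is not marked as a pseudogene, which gave 47 of the 54464 gene rows counted. Slc25a52, the paralogue of Slc25a51 known from humans, was not among them and was not analysed here. Nuclei came from the livers of 6 female C57BL6/BomTac mice that were 8 to 12 weeks old at the start of 6 weeks on a purified control diet, 3 WT and 3 HNKO. All 6 mice carried the floxed Nampt allele, and the HNKO mice also carried Cre recombinase driven by the promoter of albumin, a hepatocyte gene. Nuclei of each mouse were marked with a hashtag antibody and sequenced in pools, so that a mouse is the replicate and is known only from its hashtag.

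Carriers of this family are membrane proteins, most of them in the inner mitochondrial membrane, that move small metabolites between the cytosol and the matrix. They supply the matrix with NAD, coenzyme A, nucleotides, phosphate and iron, carry ornithine and aspartate for the urea cycle, and exchange citrate, malate and acylcarnitines with the cytosol. NAMPT is the rate-limiting enzyme of the NAD salvage pathway in the cytosol, and SLC25A51 is the carrier that brings NAD into mammalian mitochondria.

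The files held 5193 nuclei in 21 named clusters, 13 of them of hepatocytes. Each mouse gave 629 to 1063 nuclei and 3766532 to 7763269 unique molecular identifiers (UMIs, counted RNA molecules), of which 77.4 to 80.5% were unspliced. Nampt itself did not separate the genotypes in hepatocyte nuclei. Its level in WT was 91.3, 109 and 103 CPM (UMIs over 1000000 of the mouse's hepatocyte UMIs, scaled by the trimmed mean of M values, TMM), and in mice labelled HNKO it was 91.7, 147 and 71.1, counted over the whole gene, so that the deleted part of the transcript was not resolved. Of the hepatocyte nuclei of HNKO mouse 2, 373 were in the cluster Periportal 1 and 292 in Hepatocytes 1, where WT mouse 2 had 241 and 345, whereas HNKO mouse 1 had 658 in the cluster HNKO 1, which held 3 or fewer nuclei of any other mouse. In HNKO mouse 3 the assigned hashtag made up 49.0% of the hashtag counts of its nuclei, against 66.1 to 80.3% in the other mice. Results are therefore also given without single mice where that changes them.

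In hepatocyte nuclei, 46 of the 47 members had at least 1 UMI, and Slc25a35 had none. The family made up 0.490%, 0.490% and 0.532% of hepatocyte UMIs in WT and 0.595%, 0.479% and 0.334% in HNKO, which is 0.504 ± 0.024% in WT and 0.469 ± 0.131% in HNKO (mean ± SD, n = 3 each). The HNKO mice held both the highest and the lowest share, and the WT mice lay between them, so that the groups overlapped. Slc25a13 (citrin, the liver aspartate/glutamate carrier), Slc25a21 (a carrier of oxodicarboxylates) and Slc25a47 together gave 64.5% of the family's hepatocyte UMIs. With Slc25a15, the ornithine carrier of the urea cycle, the share was 71.5%. Reads from nuclei cover introns, and the spans of Slc25a13 and Slc25a21 are 175956 and 484839 bases, so levels were not compared between genes.

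The first comparison was between HNKO and WT hepatocytes, summed per mouse. No member was called different, meaning an adjusted p under 0.05 in edgeR's quasi-likelihood test with Benjamini-Hochberg adjustment over all genes tested. This was 0 of the 38 members with enough counts to be tested, against 0% of 11809 genes. At an unadjusted p under 0.05 there was 1 member (2.63%), against 698 genes (5.91%). DESeq2 called 0 members and 24 genes. The median log2 fold change was -0.03 over the members and 0.02 over all genes tested. Levels of single members are given in the same TMM-scaled CPM among hepatocytes.

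Among the carriers of NAD and cofactors, Slc25a51 (chromosome 4, 45395923 to 45408766, minus strand, GRCm38) stood at 192, 173 and 172 CPM in WT and at 206, 171 and 82.2 in HNKO. The log2 fold change was -0.23 (SE 0.31, adjusted p = 0.90 in edgeR). HNKO mouse 3 was the low sample, the other HNKO mice lay just above and just below the WT range, and without HNKO mouse 3 the log2 fold change was 0.08. Slc25a47, a carrier found mainly in liver (chromosome 12, 108836046 to 108856815), stood at 913, 711 and 617 in WT and at 810, 587 and 136 in HNKO (log2 fold change -0.55, SE 0.55, adjusted p = 0.85). Here too HNKO mouse 3 was lowest. Slc25a17, the peroxisomal carrier of NAD and coenzyme A, stood at 53.7, 39.1 and 44.8 in WT and at 56.8, 51.2 and 67.1 in HNKO (log2 fold change 0.35, adjusted p = 0.82). Slc25a32, which carries folate and FAD, was 188, 120 and 169 in WT and 142, 99.0 and 23.6 in HNKO (log2 fold change -0.85, SE 0.54, adjusted p = 0.82). Slc25a42, the coenzyme A carrier, was 127, 119 and 80.6 in WT and 106, 66.2 and 81.4 in HNKO (log2 fold change -0.37, adjusted p = 0.83). The groups of all 5 overlapped.

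The aspartate and ornithine carriers varied as much within genotypes as between them. Slc25a13 ranged from 1445 to 1891 in WT and from 766 to 2083 in HNKO (log2 fold change -0.20), and Slc25a15 from 256 to 596 in WT and from 99.1 to 574 in HNKO (log2 fold change -0.21). Slc25a12, the second aspartate/glutamate carrier, was 57.4 to 78.2 in WT and 64.9 to 69.0 in HNKO (log2 fold change -0.02), and Slc25a11, the oxoglutarate carrier of the malate-aspartate shuttle, was 6.41 to 7.87 in WT and 3.94 to 7.83 in HNKO (log2 fold change -0.20). Slc25a38, the glycine carrier used in haem synthesis, was 10.4, 10.5 and 16.0 in WT and 14.3, 15.9 and 19.2 in HNKO (log2 fold change 0.42, adjusted p = 0.82). Slc25a2, the second ornithine carrier, had 7 UMIs in all hepatocytes and was not tested. The smallest adjusted p among these was that of Slc25a38.

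Carriers of carboxylates, carnitine, phosphate and iron were not called either. The log2 fold change was 0.19 for Slc25a1 (citrate), 0.00 for Slc25a10 (dicarboxylates), 0.00 for Slc25a20 (acylcarnitines), -0.23 for Slc25a3 (phosphate) and -0.18 for Slc25a37 (mitoferrin, the iron importer), with SEs of 0.18 to 0.29. Slc25a5, an ADP/ATP carrier with near-identical copies elsewhere in the genome, had 230 hepatocyte UMIs and a log2 fold change of -0.14, and its paralogue Slc25a4 had 11 UMIs and was not tested. Both are uncertain, since the counting could split reads between copies. Slc25a28, the second mitoferrin, was the single one of the 38 tested members whose groups did not overlap: it stood at 19.2, 17.9 and 18.8 in WT and at 17.1, 15.2 and 16.0 in HNKO (log2 fold change -0.21, adjusted p = 0.84). Groups did not overlap in 11.6% of all genes tested, 5.17% with HNKO lower. Slc25a34, a member without an agreed substrate, had the smallest unadjusted p of the family: it was 2.44, 2.89 and 3.82 in WT and 3.78, 6.62 and 7.26 in HNKO (log2 fold change 0.93, SE 0.35, unadjusted p = 0.03 and adjusted p = 0.82 in edgeR), from 149 UMIs in all.

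**Figure D1:**
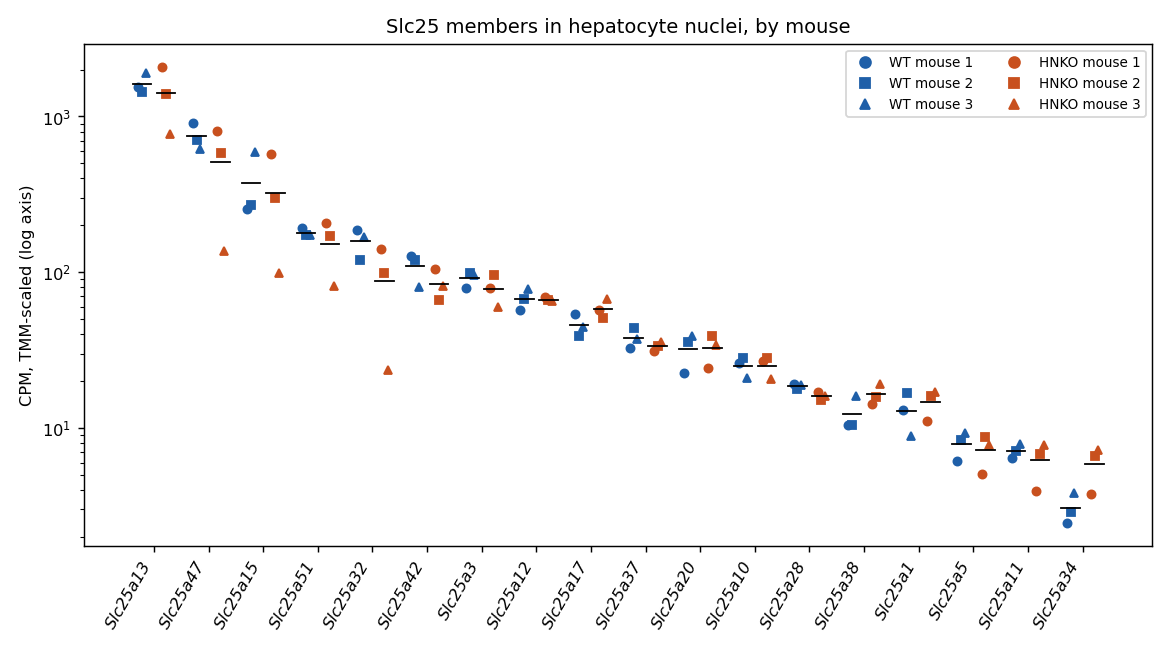
Levels of the 18 named Slc25 members in hepatocyte nuclei. Each point is 1 mouse (blue, WT; orange, HNKO; n = 3 each), the y axis gives TMM-scaled CPM on a log scale, and bars are group means. HNKO mouse 3 lies far below the other mice for Slc25a47 (136) and Slc25a32 (23.6).

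HNKO mouse 3 was the lowest of the 6 mice for 16 of the 38 members tested and the highest for 8, against 26.5% and 29.6% of all genes tested. No other mouse was lowest for more than 6 members. Its TMM factor was 1.28 in hepatocytes, where the other mice had 0.917 to 1.01, and its low hashtag share is given above. The part of these in its values was not tested. Leaving out any one mouse, or keeping only nuclei with most of their hashtag counts from their own hashtag, left the count of called members at 0. Over all genes these fits also called 0, except that without HNKO mouse 2, which shared clusters with WT mouse 2. There 32 of 12046 genes were called, and 1295 genes and 0 of 38 members had an unadjusted p under 0.05 in edgeR.

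Other genes of mitochondrial transport were read in the same comparison. Of 35 such genes in a fixed list (pyruvate, serine, calcium and potassium transport, uncoupling proteins, carrier import and mitochondrial NAD enzymes), 30 were tested and 0 were called (0% of all genes), with a median log2 fold change of -0.04.

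The second comparison was within the hepatocytes, by position in the lobule. The authors named 3 hepatocyte clusters Central, after the central vein around which pericentral hepatocytes lie, and 3 Periportal. Hepatocytes around the central vein express glutamine synthetase and take up glutamate, whereas those around the portal tract carry out urea synthesis from amino acids. Central clusters held 39 to 100 nuclei per mouse and 159550 to 916776 UMIs. Of the 2 Central clusters that carry HNKO in their name, 1 held 93 nuclei of HNKO mouse 1 and 1 of HNKO mouse 2, and the other 78 nuclei of HNKO mouse 3. The zonation markers fixed for this check bore out the name: Glul, glutamine synthetase, was higher by 5.08 on the log2 scale in Central clusters, and Cyp2f2, a periportal cytochrome, was lower by 4.26 (log2 fold change -4.26). All 6 pericentral markers were called higher and 5 of 6 periportal markers lower, with Pck1 at a log2 fold change of 0.00. A p-value here measures the spread of the difference between these mice. The clusters were built from the expression of these same nuclei, so it is no independent test of zonation.

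Between Central clusters and all other hepatocytes of the same mouse, 10 of the 33 members tested were called, 8 higher and 2 lower (edgeR with mouse as a block). Over all 9192 genes tested, 13.5% were called, 7.37% higher and 6.09% lower in Central clusters. The share was 30.3% among the members, 24.2% higher and 6.06% lower. The median log2 fold change was 0.12 over the members and -0.02 over all genes.

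Slc25a51, the NAD carrier, had the largest change of the family and was lower in Central clusters. In the nuclei of Central clusters it stood at 37.8, 38.2 and 26.3 CPM in WT mice 1 to 3 and at 72.9, 32.1 and 41.0 in HNKO mice 1 to 3. In the other hepatocytes it stood at 199, 175 and 178 in WT and at 220, 178 and 84.6 in HNKO. It was lower in 6 of 6 mice, and no mouse had a Central value as high as the lowest value of the other hepatocytes (84.6). The log2 fold change was -1.92 (SE 0.18, adjusted p = 4.96e-09 in edgeR), from 113 UMIs in Central clusters and 4759 in other hepatocytes. The call held in all 14 alternative analyses, with log2 fold changes of -2.83 to -1.28.

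Across single clusters with at least 10 nuclei of a mouse, Slc25a51 was lowest in the Central cluster of every mouse. In WT mouse 1, it was 37.7 CPM in Central 1, 148 to 215 in the clusters named Hepatocytes, and 255 and 284 in the Periportal clusters. In WT mouse 2 it was 38.4 in Central 1, 134 and 161 in the clusters named Hepatocytes and 251 in Periportal 1. In WT mouse 3 it was 26.4 in Central 1, 120 and 220 in the clusters named Hepatocytes and 241 in Periportal 2. HNKO mouse 2, the only HNKO mouse with a Periportal cluster of this size, had 32.8 in Central 1, 130 and 163 in the clusters named Hepatocytes and 227 in Periportal 1. HNKO mouse 1 had 70.4 in Central HNKO 1, 160 in Hepatocytes 2 and 225 in HNKO 1, and HNKO mouse 3 had 40.8 in Central HNKO 2, 78.2 in HNKO 3 and 88.7 in HNKO 2. Where a mouse had Periportal clusters, these held its highest values.

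Slc25a32, the folate and FAD carrier (chromosome 15, 39091231 to 39112716), was the other member that was lower. It stood at 63.0, 38.2 and 75.0 in Central clusters of the WT mice against 192, 121 and 171 in their other hepatocytes. The HNKO mice had 92.5, 32.1 and 27.9 in Central clusters against 145, 102 and 23.0. It was lower in 5 of 6 mice, with HNKO mouse 3 as the exception (log2 fold change -1.04, SE 0.19, adjusted p = 0.000185).

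Of the 8 members that were higher, Slc25a21, the oxodicarboxylate carrier (chromosome 12, 56712634 to 57197472), was higher in 6 of 6 mice and called in all 14 alternatives, as were Slc25a42 and Slc25a37. Its Central values were 2114, 2003 and 2007 in WT and 2386, 1791 and 1195 in HNKO, against 998, 1160 and 1038 in WT and 1173, 933 and 620 in HNKO among other hepatocytes (log2 fold change 0.95, SE 0.09, adjusted p = 8.84e-09). Slc25a42, the coenzyme A carrier (chromosome 8, 70184340 to 70212305), rose from 121, 109 and 75.8 to 168, 305 and 128 in WT and from 83.0, 59.7 and 78.6 to 246, 143 and 106 in HNKO (log2 fold change 1.03, SE 0.15, adjusted p = 1.035e-05). Slc25a37, the mitoferrin, rose from 30.1, 43.0 and 35.2 to 54.6, 50.9 and 60.03 in WT and from 26.0, 31.2 and 34.0 to 59.9, 61.8 and 52.1 in HNKO (log2 fold change 0.83, SE 0.17, adjusted p = 0.00114). These values did not overlap between the classes for Slc25a37 and Slc25a21, with a lowest Central value of 50.9 against 43.0 and of 1195 against 1173, and they overlapped between mice for Slc25a42.

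Slc25a33, a pyrimidine nucleotide carrier (chromosome 4, 149744036 to 149774277), and Slc25a30 were also higher in 6 of 6 mice. Slc25a33 rose from 54.5, 25.3 and 39.9 to 156, 50.9 and 60.03 in WT and from 80.6, 14.8 and 11.3 to 190, 37.1 and 13.0 in HNKO (log2 fold change 1.09, SE 0.18, adjusted p = 4.71e-05). Slc25a30 rose by 0.81 on the log2 scale (SE 0.16, adjusted p = 0.000508), and its levels differed more between mice, from 15.5 to 143 over all hepatocytes, than between the classes. Both calls and that of Slc25a32 were lost when the mouse was left out of the model, with adjusted p of 0.361, 0.589 and 0.188.

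The smallest of the 10 changes were those of Slc25a22, a glutamate carrier (log2 fold change 0.53), Slc25a25, an ATP-Mg/phosphate carrier (0.48), and Slc25a13 (0.30), with adjusted p of 0.0209, 0.0157 and 0.0287. Slc25a13 was higher in 6 of 6 mice and the others in 5 of 6. These calls depended on single mice and settings: each was lost in 7 or 8 of 14 alternatives, and without at least 1 of the 6 mice. Of the 14 tested members named by role, 11 were not called, with log2 fold changes of -0.28 to 0.36 and a lowest adjusted p of 0.141. Slc25a15 and Slc25a47 were among these.

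**Figure D2:**
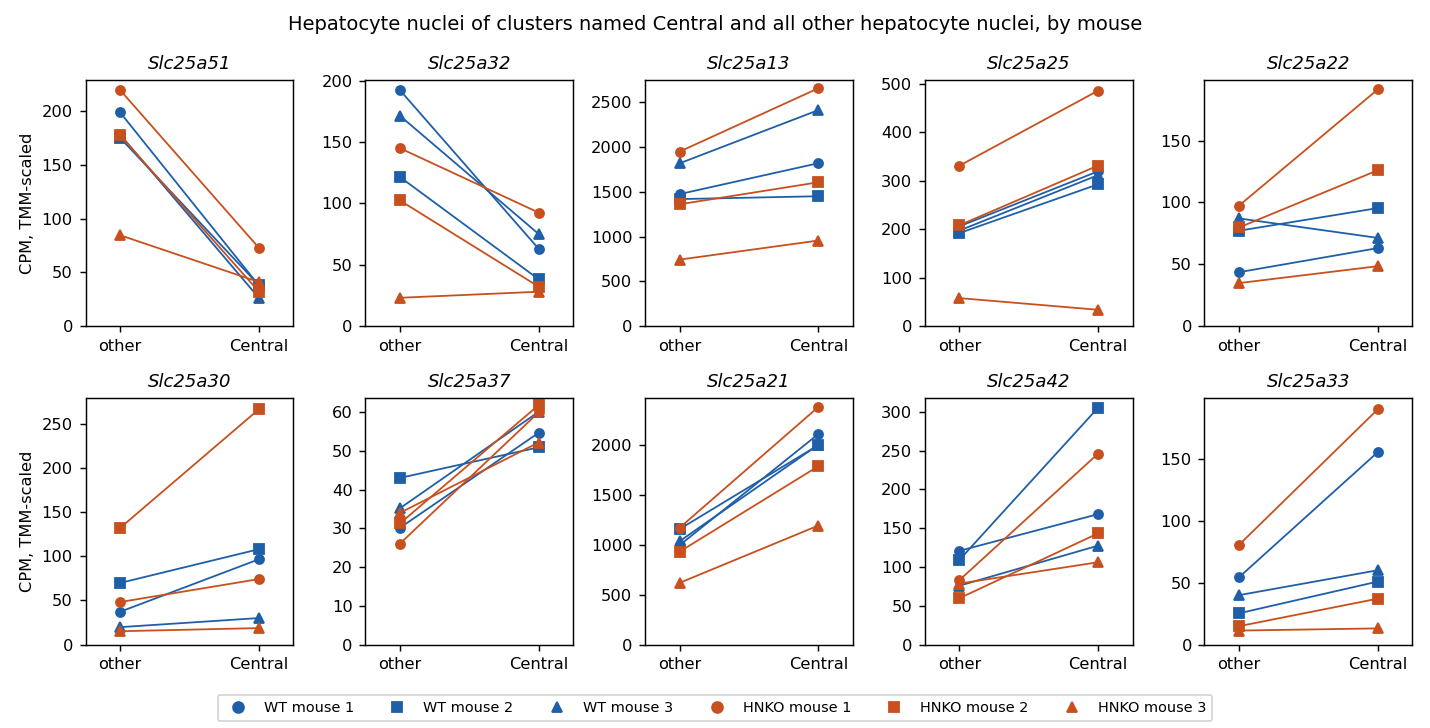
The 10 Slc25 members called between Central and other hepatocyte clusters. Each line joins the 2 values of 1 mouse in TMM-scaled CPM (blue, WT; orange, HNKO), with panels ordered by log2 fold change from -1.92 to 1.09. Slc25a51 falls in all 6 mice, while the lines of Slc25a32 and Slc25a25 run the other way in HNKO mouse 3.

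The order was also read from zonation markers alone. Hepatocyte nuclei of each mouse were divided into tertiles by a score of 6 pericentral and 6 periportal markers, none of which is an Slc25 member. Slc25a51 fell from the periportal over the middle to the pericentral tertile in 6 of 6 mice, from 246, 232 and 245 to 112, 106 and 82.9 in WT and from 303, 229 and 104 to 122, 90.9 and 46.9 in HNKO. Slc25a21 and Slc25a37 rose over the 3 tertiles in 6 of 6 mice. Slc25a32 fell over the tertiles in 5 of 6 mice, and in HNKO mouse 3 it stood at 21.3 in the periportal and 26.4 in the pericentral tertile. The middle tertile held no nuclei of Central clusters in any mouse, so the step from the periportal to the middle tertile lies outside those clusters. The fit of the pericentral against the periportal tertile called 13 of 33 members and 1696 of all 8583 genes tested, with a log2 fold change of -1.28 for Slc25a51. In every mouse, nuclei of the periportal tertile held more unspliced UMIs, with medians of 3077 to 5142 per nucleus against 2251 to 3756 in the pericentral tertile, and the part of this in the scaled levels was not tested.

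**Figure D3:**
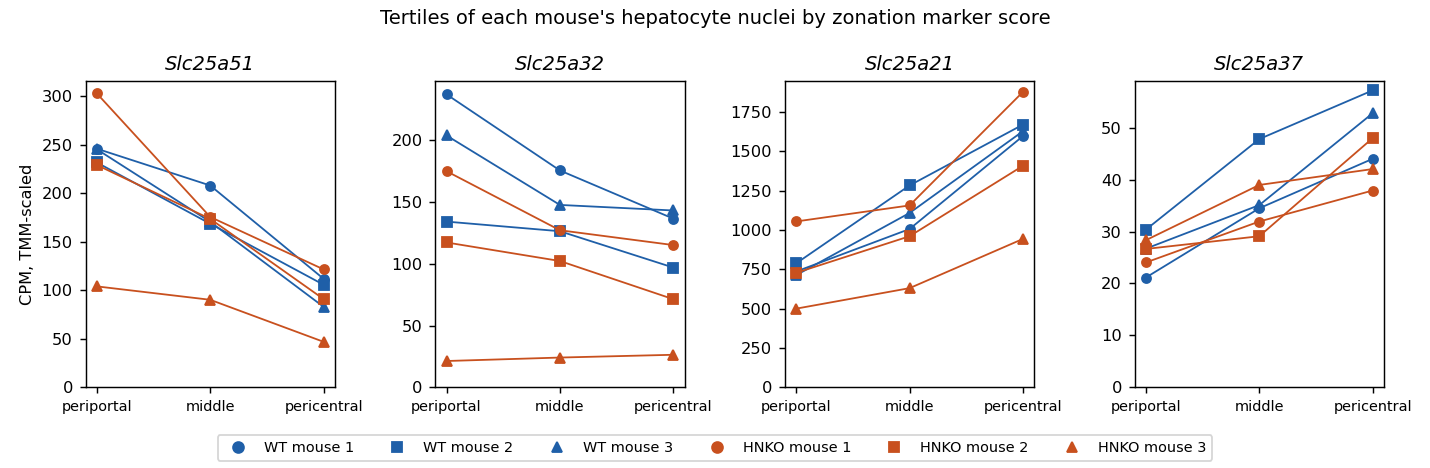
Levels of 4 Slc25 members in periportal, middle and pericentral tertiles of each mouse's hepatocyte nuclei, in TMM-scaled CPM (blue, WT; orange, HNKO). Slc25a51 falls and Slc25a21 and Slc25a37 rise in every mouse, whereas Slc25a32 is flat and low in HNKO mouse 3 (21.3 to 26.4).

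The zonal difference was compared between genotypes by an interaction term. It called 0 of 38 members in edgeR, against 7 of 10431 genes (0.0671%), with 6 members and 601 genes (5.76%) at an unadjusted p under 0.05 and 0 members in DESeq2. The drop of Slc25a51 was smaller in HNKO mice by 0.86 on the log2 scale (SE 0.39, unadjusted p = 0.03, adjusted p = 0.78 in edgeR). The interaction was 0.67 for Slc25a15 (adjusted p = 0.68), 0.66 for Slc25a22 and -2.07 for Slc25a18, the latter from 24 UMIs in Central clusters. Slc25a14 had 0 UMIs in Central clusters of the WT mice and 14 in those of the HNKO mice. The number of mice leaves wide errors here, and a missed threshold does not show that the zonal differences were alike.

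The RefSeq promoter table (GRCm38.p6) held 7 of the 10 members called in this comparison. Slc25a51, Slc25a32 and Slc25a37 had no entry. Pericentral expression is known to depend on Wnt signalling through TCF factors, so the 250 bases before each start were searched for CTTTGA, the core of the TCF site, on both strands (TCAAAG on the other). The sequences of 3 members that were higher in Central clusters in every mouse are shown 5′ to 3′ on the minus strand, from chr4:149774268-149774517, chr12:57197473-57197722 (the upstream one of 2 starts) and chr8:70212282-70212531, with any match in capitals.
Slc25a33: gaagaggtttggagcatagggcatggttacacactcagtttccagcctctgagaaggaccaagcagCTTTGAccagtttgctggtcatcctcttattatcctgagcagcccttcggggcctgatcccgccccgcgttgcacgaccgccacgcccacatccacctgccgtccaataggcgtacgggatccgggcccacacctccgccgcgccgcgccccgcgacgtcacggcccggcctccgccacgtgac
Slc25a21: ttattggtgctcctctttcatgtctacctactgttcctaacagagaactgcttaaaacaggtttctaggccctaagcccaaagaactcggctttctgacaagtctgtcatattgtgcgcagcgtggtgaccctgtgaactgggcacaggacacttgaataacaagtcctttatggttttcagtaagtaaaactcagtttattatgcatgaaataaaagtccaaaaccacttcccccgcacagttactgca
Slc25a42: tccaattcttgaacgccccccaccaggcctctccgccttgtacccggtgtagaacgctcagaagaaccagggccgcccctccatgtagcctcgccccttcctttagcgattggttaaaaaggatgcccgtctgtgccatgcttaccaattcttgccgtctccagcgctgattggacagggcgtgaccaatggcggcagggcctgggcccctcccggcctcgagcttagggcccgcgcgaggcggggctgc

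Slc25a33 held 1 match and the other 2 shown held none. Of the 7 members, 2 had a match before any of their starts, Slc25a33 and Slc25a22, the latter before 1 of its 3 starts. Counted by single promoter, 13.8% of all 32851 held one. A member can have several promoters, so these counts are in unlike units and are not compared. A match describes the letters in this window only.

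Genes of mitochondrial transport outside the family were also compared by zone. Of the 35 listed, 25 were tested, 2 were called higher and 2 lower, against 7.37% higher and 6.09% lower of all 9192 genes tested. Sfxn1, a mitochondrial serine carrier of another family, had a log2 fold change of -4.004 (adjusted p = 3.79e-13) and stood at 6.36 to 21.01 in Central clusters against 98.0 to 260 in other hepatocytes. Slc8b1, a mitochondrial sodium/calcium exchanger, was lower (-0.66), and Mpc2, a subunit of the pyruvate carrier (0.45), and Nadk2, the mitochondrial NAD kinase (0.47), were higher.

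Across cell types, the family was lower outside hepatocytes. It made up 0.171 to 0.220% of UMIs in endothelial cells, 0.0659 to 0.156% in stellate cells, 0.202 to 0.304% in CD45+ cells, 0.123 to 0.165% in Kupffer cells and 0.136 to 0.163% in cholangiocytes, against 0.334 to 0.595% in hepatocytes. The ranges of all 5 types lay below that of hepatocytes. Mice with at least 10 nuclei of a type entered, which were 6 for endothelial and stellate cells, 5 for CD45+ cells (2 WT) and the 3 HNKO mice for Kupffer cells and cholangiocytes. Some of the fixed markers are given here for endothelial cells, Kupffer cells and cholangiocytes, and none for stellate and CD45+ cells. Stab2 of sinusoidal endothelium was 3707 to 6390 CPM in endothelial cells and 22.2 to 31.4 in hepatocytes, and Clec4f was 847 to 986 in Kupffer cells. In cholangiocytes the defining marker Krt19 was near 0, at 0 to 3.69 from 2 UMIs, and of the markers fixed for them Pkhd1 was the high one (4807 to 9792).

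Hepatocyte RNA was present in every other type. The 6 hepatocyte markers, among them Alb and Apob, were lower than in hepatocytes by log2 fold changes of only -2.38 to -1.11 in endothelial cells, -3.87 to -1.43 in stellate cells, -2.21 to -0.58 in CD45+ cells, -4.13 to -1.48 in Kupffer cells and -4.71 to -1.79 in cholangiocytes. A member within such a range is at the level that these transcripts had, and expression by the type itself cannot be told apart from hepatocyte RNA.

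In endothelial cells 24 of 34 members tested were called, 3 higher and 21 lower (all genes 49.3%, of which 19.1% higher and 30.2% lower). In stellate cells the count was 21 of 35, 2 higher and 19 lower (42.9%, 16.2% and 26.7%), and in CD45+ cells 15 of 34, 2 higher and 13 lower (37%, 14.3% and 22.6%). In Kupffer cells it was 16 of 37, 1 higher and 15 lower (30.6%, 10.6% and 19.9%), and in cholangiocytes 18 of 39, 3 higher and 15 lower (23.7%, 9.34% and 14.3%). The higher counts include Slc25a36 in all 5 types, Slc25a43 in stellate cells and Slc25a24 in cholangiocytes. These members passed the filter on low counts through those types, so the higher counts are a description only. Without HNKO mouse 1 the count in cholangiocytes was 6 of 38, against 944 of 11220 genes. The median log2 fold change over members was -1.51, -1.76, -0.87, -2.22 and -0.81 in the 5 types in the order given, against -0.28, -0.32, -0.24, -0.62 and -0.13 over all genes tested. Of the called lower members, 17 of 21, 15 of 19, 13 of 13, 9 of 15 and 11 of 15 lay within the range of the hepatocyte markers. Slc25a13, Slc25a21, Slc25a15, Slc25a42 and Slc25a47 were called lower in all 5 types, and lay within that range except Slc25a13 in Kupffer cells (-4.23). Slc25a13 was 272 to 531 in endothelial cells and 37.0 to 297 in stellate cells against 953 to 2360 in hepatocytes, on a TMM scale over all types. Slc25a51 was 8.86 to 83.4 in endothelial cells, 12.3 to 87.6 in stellate cells and 63.7 to 129 in CD45+ cells against 102 to 234 in hepatocytes, and its values overlapped with those of hepatocytes only in CD45+ cells. It was 19.0 to 69.3 in Kupffer cells and 0 to 55.3 in cholangiocytes.

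The member that stood out in the other direction was Slc25a36, a pyrimidine nucleotide carrier of the inner membrane (chromosome 9, 97074961 to 97111157). It was near the floor in hepatocytes, with 63 UMIs in all and 1.76 to 3.50 CPM, and was higher in every other type and every mouse. It reached 43.3 to 88.6 in endothelial cells, 109 to 185 in stellate cells, 16.6 to 130 in CD45+ cells, 143 to 277 in Kupffer cells and 40.6 to 238 in cholangiocytes. The log2 fold changes were 4.76 (SE 0.38), 5.62 (0.36), 4.76 (0.48), 5.79 (0.56) and 4.70 (0.52), with the same direction under every alternative run. Slc25a36 had too few counts to be tested within hepatocytes and passed the filter on low counts here through the other types. Its p-values are therefore not given, and these values are a description. Slc25a33, the other pyrimidine nucleotide carrier, was not called in Kupffer cells (log2 fold change 1.24, adjusted p = 0.0513 in edgeR). Nor was it called in stellate cells (-1.04, adjusted p = 0.0925) or cholangiocytes (-0.16, adjusted p = 0.864). It was lower in endothelial (-1.50) and CD45+ cells (-1.46), where both values lay within the range of the hepatocyte markers.

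In endothelial cells Slc25a37, the mitoferrin, was also higher: it stood at 63.6 to 177 against 35.2 to 51.5 in hepatocytes, in 6 of 6 mice (log2 fold change 1.39, SE 0.23, adjusted p = 9.21e-07). It was 0 to 49.9 in stellate cells and 0 to 9.52 in Kupffer cells. Slc25a40, linked to mitochondrial glutathione import, was higher in endothelial cells (log2 fold change 1.06, adjusted p = 0.0294) and CD45+ cells (1.46, adjusted p = 0.00873), from 25 and 23 UMIs. The first call was lost without WT mouse 2, WT mouse 3 or HNKO mouse 1, and the second without HNKO mouse 1 or 2. Both were also lost with no filter on low counts, and with only nuclei that had most hashtag counts from their own hashtag.

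In cholangiocytes Slc25a24, an ATP-Mg/phosphate carrier (chromosome 3, 109123149 to 109168457), stood at 55.4, 64.8 and 55.3 in HNKO mice 1 to 3 against 1.30, 0.389 and 0.885 in their hepatocytes (log2 fold change 5.72, SE 0.62). It had too few counts to be tested within hepatocytes and passed the filter on low counts here through the cholangiocytes. Its p-value is therefore not given, and these values are a description. It had 40 UMIs in cholangiocytes and 14 in hepatocytes of these mice. In the other types it had 4 to 14 UMIs and was not tested, but its ratio to hepatocytes was also above 1: it was 26.1 (95% exact interval 11.9 to 56.3) in endothelial, 35.7 (16.3 to 77.0) in stellate, 10.1 (2.47 to 31.4) in CD45+ and 27.6 (7.79 to 81.2) in Kupffer cells. These intervals cover counting error only. Slc25a30 was higher in cholangiocytes, at 170, 195 and 88.0 against 59.6, 168 and 19.3 in hepatocytes (log2 fold change 1.22, adjusted p = 0.0047), but this call held in only 2 of 7 alternatives. It was lost without HNKO mouse 1 or HNKO mouse 3, with no filter on low counts, in DESeq2 and with the mouse left out of the model. In stellate cells Slc25a43 had 8 UMIs, against 7 in all hepatocytes. It passed the filter on low counts through the stellate cells and was not tested in 7 of 11 alternatives, among them each fit without 1 mouse, so its call is not read as a difference.

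**Figure D4:**
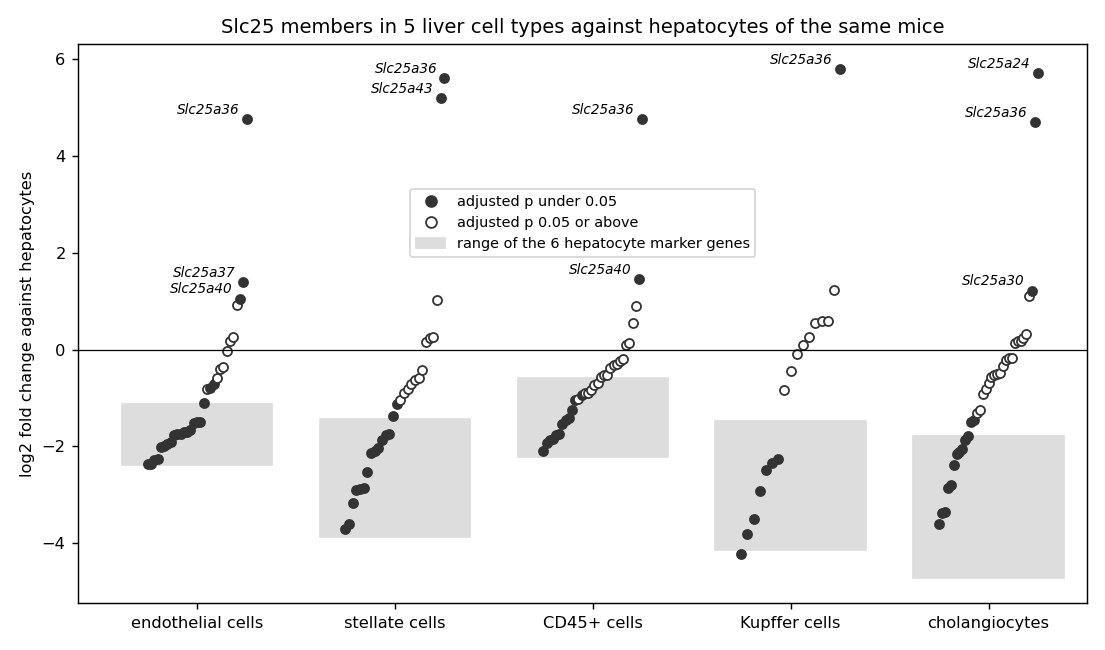
Log2 fold change of Slc25 members in 5 cell types against hepatocytes of the same mice. Each point is 1 member with more than 3 UMIs in that type (filled, adjusted p under 0.05), and the grey box spans the 6 hepatocyte marker genes. Slc25a36, Slc25a24 and Slc25a43 passed the filter on low counts through the types where they are high, so their filled points are not read as calls. Slc25a36 lies at 4.70 to 5.79 in all 5 types, and most lower members lie inside the grey boxes.

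Some of the lowest members had too few counts for a fold change. Slc25a44, a branched-chain amino acid carrier, had 0 UMIs in stellate cells against 661 in hepatocytes, which is at least 5.08-fold lower with a floor of 3 counts over the group. Slc25a39, the glutathione importer, had 1 UMI in stellate cells (ratio 0.0557, 95% exact interval 0.0014 to 0.311), and Slc25a48 had 1 in endothelial cells (ratio 0.0803, 0.002 to 0.45). In Kupffer cells Slc25a20, the acylcarnitine carrier, had 0 UMIs (at least 2.68-fold lower), as did Slc25a1 and Slc25a27 (at least 1.22-fold each). Slc25a32 and Slc25a22 had 1 UMI each there, with ratios of 0.0476 (0.0012 to 0.266) and 0.0537 (0.0014 to 0.3). Slc25a34 had 0 UMIs in cholangiocytes (at least 1.38-fold lower), and Slc25a10 had 3 (ratio 0.174, 0.0357 to 0.511), as did Slc25a27 in CD45+ cells (0.314, 0.0645 to 0.925). These intervals cover counting error only.

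Between genotypes, no member was called in the other cell types either (edgeR and DESeq2). In endothelial cells 6 members were tested and 0 of 2743 genes were called (0%), in stellate cells 5 and 0 of 2266 (0%), and in CD45+ cells 8 and 0 of 2651 (0%). At an unadjusted p under 0.05 there were 1, 0 and 0 members, against 104 (3.79%), 161 (7.11%) and 215 genes (8.11%). Slc25a47 was the member with the smallest p in all 3, with log2 fold changes of -0.66 in endothelial, 1.33 in stellate and -0.94 in CD45+ cells (adjusted p = 1.00, 0.71 and 0.65). Its groups did not overlap in endothelial cells, at 346, 244 and 222 in WT and 167, 201 and 139 in HNKO on the scale over all types. Groups did not overlap in 9.99% of genes there, and with HNKO lower in 5.21%. In CD45+ cells its groups did not overlap on the scale of that fit (HNKO lower in 13.8% of genes and either way in 26.7%, with 2 WT mice), while on the scale over all types they touched, at 248 and 409 in WT and 222, 249 and 88.3 in HNKO.

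In endothelial cells the values were 0.65 for Slc25a15, -0.32 for Slc25a12, -0.12 for Slc25a37 and 0.09 for Slc25a13, and in stellate cells 1.36 for Slc25a13, 0.82 for Slc25a21, -0.09 for Slc25a36 and 0.08 for Slc25a12. In CD45+ cells they were 0.90 for Slc25a3, -0.39 for Slc25a25, 0.32 for Slc25a13 and -0.28 for Slc25a15. Slc25a13, Slc25a15, Slc25a21 and Slc25a47 lay in the range of the hepatocyte markers in these types, so the part of hepatocyte RNA in these values cannot be told apart. The genotype difference in hepatocytes did not differ from that in endothelial cells for any of 39 members at an adjusted p under 0.05 (13 of 11517 genes, 0.113%). At an unadjusted p under 0.05 there were 3 members (5.68% of genes), among them Slc25a51 (interaction -1.54, SE 0.58, adjusted p = 0.62) and Slc25a15 (-1.03), and DESeq2 called 0. Slc25a25 had an interaction of -0.91. Slc25a10 and Slc25a11 had 0 UMIs in WT endothelial cells and 9 and 6 in HNKO, and no interaction is given for them.

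All 47 members had a row in the GENCODE M21 annotation of GRCm38, each protein coding. Slc25a29 and Slc25a47 lie 163 bases apart on chromosome 12 and point away from each other. They had 85 and 17716 UMIs in hepatocytes over spans of 10011 and 20770 bases, and these counts are not compared. Slc25a43 and Slc25a5 lie 18449 bases apart on chromosome X, Slc25a54 and Slc25a24 6462 apart on chromosome 3, and Slc25a41 and Slc25a23 2057 apart on chromosome 17. Antisense genes overlap Slc25a10, Slc25a23, Slc25a33, Slc25a36 and Slc25a37, and other genes on the opposite strand overlap further members, such as Pax9 with Slc25a21 and Naif1 with Slc25a25. Whether strand was used in counting is not given in the sources used here, so their reads cannot be told apart.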

How the data were processed

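Per the methods of the study, nuclei were sorted and libraries made with droplet 3′ chemistry. Reads were counted against GRCm38 with GENCODE M25 by Alevin (the submitters' processing notes also name Cell Ranger 5.0.1), and hashtag singlets with over 100 hashtag counts were kept. The authors deposited expected counts (estimated UMI counts per gene and nucleus, spliced and unspliced together), hashtag counts, and metadata with hashtag, genotype and cluster. Groups of mice come from that metadata. Normalised values were not used, and no doublet caller was run.

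Expected counts were summed per mouse and class (mice with at least 10 nuclei), rounded, and fitted with edgeR 4.0.16 (filterByExpr, TMM, quasi-likelihood F test, two-sided, Benjamini-Hochberg over all genes, threshold 0.05). The mouse was a block between classes of the same mice, because they come from the same animal. DESeq2 1.42.0 and other settings were alternatives. The fits were also run on simulated counts with set changes. These held no single shifted mouse and no hepatocyte RNA in other types, so that run cannot speak to either.

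Named were members fixed by role, the called members (the 5 largest changes per direction where over 10 were called), and, where a genotype comparison called none, the 5 smallest p. Slc25a33 across cell types and members in the interactions were named after their values were seen. The members and lists were chosen with earlier results of these data known. p-values measure the spread between these 6 mice.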

Additional observations from a re-analysis of the deposited data

Results flagged for a closer look

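Of 13 groups of mice checked for a single value apart from the rest, 1 was met, and chance gives about 1 in 20. The log2 ratio of Slc25a25 between Central and other hepatocytes was -0.781 in HNKO mouse 3, whereas it was 0.554 to 0.67 in the other 5 mice. In that mouse Slc25a25 stood at 33.5 CPM in Central clusters and 57.6 in other hepatocytes, against 293 to 486 and 192 to 331 in the other mice. No interaction between genotype and cell type or zone was called for a member.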

How the results depend on the processing

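The count of called members was 0 in every genotype comparison and both interactions under every alternative run. Few genes of any kind were called there, at most 51 of 10883, in the interaction with Central clusters without HNKO mouse 2. Keeping only nuclei with most of their hashtag counts from their own hashtag reduced the called members, and fewer mice entered these fits. In endothelial cells 14 of 35 members and 2257 of 9816 genes were called (3 mice). In stellate cells it was 10 of 36 members and 1788 of 9924 genes (2 mice). In CD45+ cells it was 3 of 39 members and 1048 of 10824 genes (2 mice). Leaving out single mice gave 21 to 24 called members in endothelial, 18 to 20 in stellate, 11 to 16 in CD45+ and 12 to 13 in Kupffer cells, 7 to 9 in Central clusters, and 6 to 18 in cholangiocytes, where the 6 came without HNKO mouse 1. All genes called in the same fits were 4303 to 4617, 3510 to 4153, 2709 to 3601 and 1819 to 2885 in these cells. They were 920 to 1098 in Central clusters and 944 to 2751 in cholangiocytes. With no replicate block (mouse left out of the model) the called members in Central clusters fell from 10 to 4, which were Slc25a51, Slc25a21, Slc25a42 and Slc25a37. All genes called fell as well, from 1237 to 355 of the 9192 tested there. The other paired comparisons stayed within 1.5 times. Without that block, 23, 22, 15, 17 and 17 were called in endothelial, stellate, CD45+ and Kupffer cells and cholangiocytes. All genes called were 4684, 4259, 3296, 3242 and 2308 in the same order. DESeq2 called 8 of 46 members in Central clusters and 13 of 45 in cholangiocytes, against 1078 of 26613 and 2067 of 25594 genes. Fits chosen after seeing the data, beside the interaction of genotype with Central clusters, called 12 of 28 members for Central against Periportal clusters (1325 of 6803 genes) and 13 of 33 for tertiles by marker score (1696 of 8583 genes). No paired analysis was possible between WT and HNKO because the mice are independent animals. The HNKO minus WT difference of the family's share of hepatocyte UMIs was -0.034 percentage points, ranged from -0.0974 to 0.0335 when single mice were left out, and was positive only without HNKO mouse 3. Of 885 alternative values of named members, 30 changed sign, none of a called member. With RLE size factors Slc25a10 and Slc25a20 in hepatocytes were -0.01 and -0.009, and with no filter Slc25a12 was 0.001 there, Slc25a37 0.045 in endothelial cells and Slc25a15 0.055 in CD45+ cells. The sign also changed in hepatocytes without WT mouse 1 (Slc25a20 -0.197), without WT mouse 3 (Slc25a12 0.096, Slc25a15 0.293, Slc25a1 -0.029, Slc25a10 -0.117), without HNKO mouse 1 (Slc25a11 0.034, Slc25a10 -0.046, Slc25a5 0.055), without HNKO mouse 2 (Slc25a10 -0.087, Slc25a20 -0.151) and without HNKO mouse 3 (Slc25a51 0.079, Slc25a12 0.007, Slc25a13 0.105, Slc25a15 0.226, Slc25a20 -0.03). It changed in endothelial cells without WT mouse 2 (Slc25a12 0.013), WT mouse 3 (Slc25a37 0.337) or HNKO mouse 1 (Slc25a13 -0.234), in stellate cells without WT mouse 2 (Slc25a12 -0.183), WT mouse 3 (Slc25a36 0.079) or HNKO mouse 1 (Slc25a36 0.052, Slc25a12 -0.097), and in CD45+ cells without WT mouse 1 (Slc25a25 0.442), WT mouse 2 (Slc25a15 0.505) or HNKO mouse 3 (Slc25a15 0.029). DESeq2, run without the filter on low counts, had medians of all genes of 0.66 to 1.395 between cell types, over more genes. RLE size factors moved the median of all genes by over 0.1 only in the interaction of genotype with cell type (-0.179 to -0.057). Fits of RNA pool 1 or 2 alone were not run, since the barcodes do not name the pool, and barcodes shared by the pools could not be counted. Depth limits the other types, where 5 to 8 members could be tested between genotypes.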
